A study of Mus musculus with 8 samples.

Results

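Glycosaminoglycans are the long sugar chains that turn a core protein into a proteoglycan. The genes described here are 46 enzymes and transporters that start such chains, extend them, add or remove their sulfate groups, make hyaluronan, or supply sulfate and sugar donors. They were taken by name from a list grouped by function, out of 55335 gene identifiers in the table. The list was chosen with earlier results of these data known. All 46 were found: 6 linker enzymes, 17 heparan sulfate enzymes, 15 chondroitin and dermatan sulfate enzymes, 3 hyaluronan synthases, and 5 suppliers of sulfate and sugar donors.

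The cells were MC3T3-E1, an established mouse pre-osteoblast line derived from newborn calvaria. After 3 days of culture, 4 libraries came from cells kept with TABS, which the labels call a Trio-Active bone scaffold, and 4 from cells kept with HA, a scaffold of hydroxyapatite doped with magnesium. What TABS is made of is not stated in the labels, and all 8 libraries came from cells with a scaffold, so each difference is between the scaffolds. The deposited column names carry H for TABS and L for HA, and no gene in the data can check which scaffold a library came from. The labels do not say that the 4 libraries of a group were separate cultures, and p-values therefore describe the spread among these libraries, some of which may be technical.

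A proteoglycan chain begins with a short linker of xylose, galactose and glucuronate on a serine of the core protein. The next sugar decides the kind of chain: N-acetylglucosamine leads to heparan sulfate and N-acetylgalactosamine to chondroitin sulfate, part of which is turned into dermatan sulfate by epimerases. Sulfotransferases then decorate the chains, using the donor PAPS. Hyaluronan differs in that it has no core protein and no sulfate, and is spun out at the plasma membrane by a synthase. In bone, such chains bind growth factors and collagen, and they change in kind as matrix matures and mineralises.

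Of the 46 genes, 35 reached 1 FPKM (fragments per kilobase of transcript, scaled to the library) in at least 4 of the 8 libraries and were tested. Of these, 34 reached it in all 8 libraries. The exception was Papss2, at 0.957 FPKM in TABS library 1. The other 11 stayed under 0.4 FPKM in every library and were not tested. TABS was compared with HA by limma on log2(FPKM + 1), and a gene counted as changed at a Benjamini-Hochberg adjusted p under 0.05 over all 11280 tested genes. Fold changes are TABS minus HA on that log2 scale, and they understate changes at low values.

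In cells on TABS, 2 of the 35 tested genes rose: Chst15, a chondroitin sulfate sulfotransferase, and Extl3, which starts heparan sulfate chains. Another 3 fell: Csgalnact2, which starts chondroitin sulfate chains, Dsel, a dermatan sulfate epimerase, and Has2, a hyaluronan synthase. The remaining 30 did not pass the test. Over all tested genes, 833 changed (7.38%), of which 506 rose (4.49%) and 327 fell (2.90%). After rescaling each library to TPM, 915 rose and 239 fell. Of the glycosaminoglycan genes, 1 in place of 2 rose without TABS library 2, 3 or 4 or HA library 2 or 3. In place of 3, 2 fell without TABS library 1 or HA library 3 or 4. Only 1 fell without TABS library 2 or HA library 1, and 0 fell without TABS library 3 or 4. The calls are therefore given gene by gene and not as a result about the list. All TABS libraries lay above all HA libraries in 6 of the 35 genes, against 10.8% of all tested genes, and below them in 4, against 7.15%. The fold change was above 0 in 24 of the 35 (19 to 24 over the alternatives that tested all 35, lowest without HA library 3), against 52.0% of all tested genes. The median was 0.05 against 0.0057 over all tested genes; it was 0.09 after TPM rescaling, where that of all genes was 0.04, it was 0.0092 after a correction for GC content and transcript length, where that of all genes was 0.0002, and it was 0.02 after quantile normalization or without HA library 3 and 0.03 without HA library 1.

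**Figure D1:**
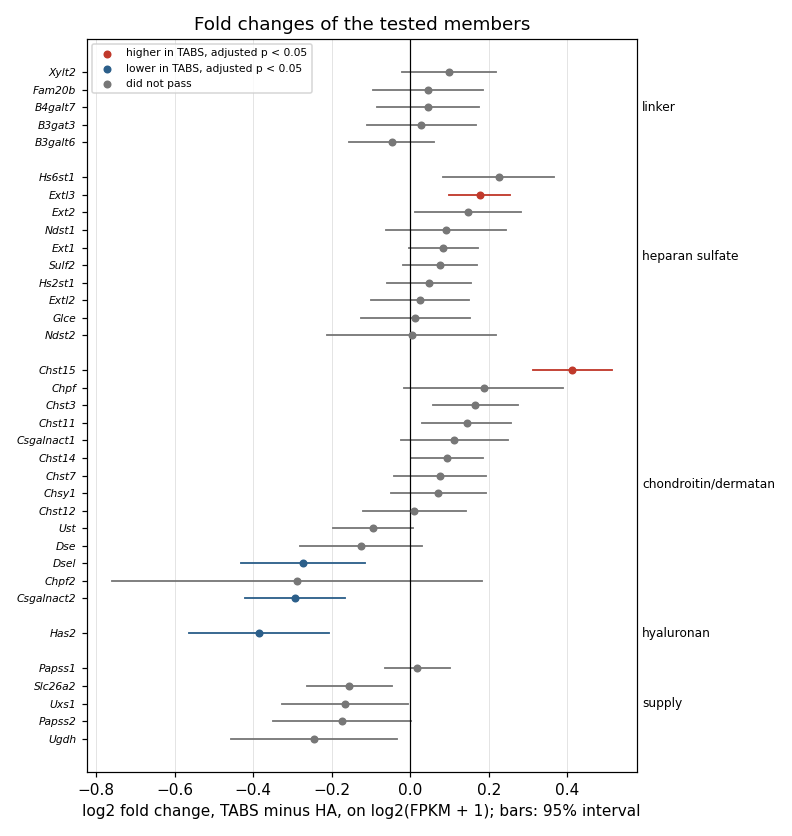
Log2 fold changes, TABS minus HA, of the 35 tested glycosaminoglycan genes, ordered by role and then by size; points are estimates and bars 95% intervals from limma. Chst15 (0.41) and Extl3 (0.18) are the genes that passed the test upwards, and Has2 (-0.39), Csgalnact2 (-0.29) and Dsel (-0.27) those that passed it downwards.

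Promoter sequences are shown for the changed genes that the RefSeq promoter table holds, since 1 of them rose and 2 fell. They run from 250 bases to 1 base before the annotated start site, 5′ to 3′ on the strand of the gene, from RefSeq on GRCm38.p6. Capitals mark matches on either strand to a GC box, spelled GGGCGG, and to an AP-1 motif, spelled TGANTCA. The regions are chr7:132317229-132317478 for Chst15, chr6:118139141-118139390 for Csgalnact2 and chr1:111864919-111865168 for Dsel, all on the minus strand.
Chst15: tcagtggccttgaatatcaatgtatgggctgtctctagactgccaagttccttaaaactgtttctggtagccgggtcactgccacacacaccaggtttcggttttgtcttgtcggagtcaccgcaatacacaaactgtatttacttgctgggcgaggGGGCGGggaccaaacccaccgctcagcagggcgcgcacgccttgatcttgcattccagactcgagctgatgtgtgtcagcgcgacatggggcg
Csgalnact2: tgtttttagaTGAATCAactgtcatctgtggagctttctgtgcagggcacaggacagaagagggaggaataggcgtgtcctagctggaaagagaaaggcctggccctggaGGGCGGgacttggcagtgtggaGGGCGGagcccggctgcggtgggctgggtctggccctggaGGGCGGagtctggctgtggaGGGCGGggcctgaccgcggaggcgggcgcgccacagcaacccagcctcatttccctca
Dsel: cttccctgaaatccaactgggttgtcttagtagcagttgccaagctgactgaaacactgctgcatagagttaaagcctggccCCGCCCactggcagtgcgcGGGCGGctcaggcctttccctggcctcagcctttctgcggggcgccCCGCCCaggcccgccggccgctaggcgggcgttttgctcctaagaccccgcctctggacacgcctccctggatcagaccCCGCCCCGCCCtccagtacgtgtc
The Chst15 promoter held 1 GC box, 93 bases before the start site. Csgalnact2 held 4 GC boxes, at 140, 118, 78 and 58 bases before the start, and an AP-1 motif at 240. Dsel held 5 GC boxes, of which those at 24 and 19 bases before the start overlap. Among 32851 mouse promoters of the same length, 32.7% held a GC box and 6.75% an AP-1 motif. None of the 3 held a CCAAT box (33.8% of all promoters), a TATA box spelled TATAAA (12.4%), a RUNX motif spelled TGTGGT (14.05%) or an E-box spelled CACGTG (6.02%), searched on both strands. GC content was 54.8% in the promoter of Chst15, 64% in that of Csgalnact2 and 65.6% in that of Dsel, against a median of 52.4%. Extl3 and Has2 are named only.

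The facts of the libraries that touch these values are few. Summed FPKM lay between 304893 and 307263 in TABS and between 312629 and 317439 in HA (two-sided exact permutation p = 0.0286, which 70 assignments cannot go below; 0.0857 adjusted over 3 measures). Mitochondrial genes held 11.5% ± 0.932 of it in TABS and 13.1% ± 1.22 in HA (SD, n = 4 each, exact permutation p = 0.143, adjusted 0.214). Read totals were not in the table. Osteoblast markers were present, with 7 of 8 at a mean of 1 FPKM or more. Of these markers 1 rose (Spp1) and 4 fell (Sp7, Alpl, Col1a1 and Ibsp), against 4.49% and 2.90% of all tested genes. Alpl ran from 0.373 to 0.518 FPKM in TABS and from 1.13 to 1.80 in HA. It was therefore tested only through the group where it was high. The summed level of the osteoblast markers was 4647 to 5204 FPKM in TABS and 4338 to 4612 in HA. Spp1 carried most of that sum, and without it the other 7 summed to 1550 to 1678 FPKM in TABS and 1784 to 2256 in HA. Of 8 chondrocyte markers, Sox9 and Col2a1 were tested and Acan, Col9a1 and Matn3 stayed under 0.1 FPKM in every library. The chondrocyte sum was 41.6 to 44.7 FPKM in TABS and 38.9 to 43.1 in HA, and Col2a1 rose. The untested Hapln1 and Col11a2 were lower in every TABS library than in any HA library, with means of 0.549 FPKM in TABS and 1.12 in HA for Hapln1, and 0.116 in TABS and 0.158 in HA for Col11a2. Of 6 leukocyte markers only Lyz2 reached 1 FPKM, and it fell. The leukocyte sum was 11.2 to 16.3 FPKM in TABS and 17.9 to 20.1 in HA, with Ptprc, Adgre1 and Itgam under 0.1 FPKM throughout. Nearly all of it came from Lyz2, and the groups of every other leukocyte marker overlapped. Adipocyte markers summed to 2.92 to 3.39 FPKM in TABS and 2.62 to 3.40 in HA, nearly all of it from Fabp4. Endothelial markers summed to 0.338 to 0.481 FPKM in TABS and 0.277 to 0.325 in HA, and muscle markers to 0.424 to 0.603 in TABS and 0.762 to 0.964 in HA. None of either list reached a mean of 1 FPKM. Among the muscle markers only Ckm had separate groups, with means of 0.171 FPKM in TABS and 0.455 FPKM in HA. The part of any of these in the results was not tested, and in bulk RNA fewer cells of a type and less RNA per cell cannot be told apart.

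Of the 6 linker enzymes 5 were tested, and 0 passed limma's test (0 also at an unadjusted p under 0.05, against 13.2% of all tested genes higher and 10.8% lower). In 4 the fold change was above 0, and in 3 without HA library 1, 3 or 4. Their median was 0.05, and 0.0092 with the GC and length correction, 0.09 after TPM rescaling, 0.02 after quantile normalization or without TABS library 2, 0.01 without HA library 3 and 0.07 without HA library 1. Xylt2, which adds the xylose that starts every linker, stood at 13.7, 13.95, 13.9 and 13.3 FPKM in TABS libraries 1 to 4, against 13.5, 13.5, 11.6 and 12.4 FPKM in HA libraries 1 to 4. The groups overlapped, and the fold change was 0.10 ± 0.05 (SE; 95% interval -0.02 to 0.22; adjusted p = 0.295). Its paralog Xylt1 was under 0.013 FPKM in every library, so Xylt2 held at least 99.9% of the summed level of the pair. B3gat3, which adds the glucuronate that closes the linker, stood at 12.9, 13.1, 13.0 and 12.3 FPKM in TABS, against 13.9, 13.2, 11.5 and 11.7 FPKM in HA. The HA values spread on both sides of the TABS values (0.03 ± 0.06, adjusted p = 0.826), and the sign turns without HA library 3 or 4. The xylose kinase Fam20b averaged 12.5 FPKM in TABS and 12.1 FPKM in HA. The galactosyltransferases were lower on both scaffolds: B4galt7 averaged 4.99 FPKM in TABS and 4.81 FPKM in HA, and B3galt6 2.51 in TABS and 2.62 in HA.

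Among heparan sulfate enzymes, Extl3 was the one that rose. Extl3 adds the first N-acetylglucosamine and so commits the linker to heparan sulfate. It is protein-coding and lies at chr14:65052060-65149855 on the minus strand (GRCm38, ENSMUSG00000021978). Its FPKM was 19.8, 20.2, 20.2 and 20.2 in TABS, against 17.2, 17.7, 17.7 and 18.1 in HA. Every TABS library was above every HA library, and the mean was 20.1 ± 0.195 FPKM in TABS and 17.7 ± 0.359 FPKM in HA (SD, n = 4 each), a ratio of 1.14. The log2 fold change was 0.18 ± 0.03 (SE; 95% interval 0.10 to 0.25; adjusted p = 0.0177, limma). The call was lost without TABS library 2 (adjusted p = 0.0564), 3 (0.0601) or 4 (0.0567), without HA library 2 (0.0504) or 3 (0.0501), and after a correction for GC content and length, which left a fold change of 0.10 (adjusted p = 0.0847).

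The other extension enzymes of heparan sulfate did not pass. Ext1 and Ext2 form the polymerase that alternates glucuronate and N-acetylglucosamine. Ext1 ran from 12.94 to 13.7 FPKM in TABS and from 12.2 to 12.88 in HA, which did not overlap (fold change 0.08, adjusted p = 0.224). Ext2 averaged 20.6 ± 1.23 FPKM in TABS and 18.5 ± 1.27 FPKM in HA (SD, n = 4 each), with overlapping groups (adjusted p = 0.170). Extl2, an N-acetylhexosaminyltransferase that caps the linker, stood at 23.8, 23.0, 22.3 and 23.3 FPKM in TABS, against 22.6, 23.5, 20.4 and 24.3 FPKM in HA. Its groups overlapped (0.03 ± 0.06, adjusted p = 0.827), and its sign turns without HA library 3. Extl1 stayed at 0.200 FPKM in TABS and 0.266 FPKM in HA.

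The enzymes that modify heparan sulfate lay between 5.86 and 24.0 FPKM in every library, apart from Sulf2 and those under 1 FPKM. The N-deacetylase and N-sulfotransferase Ndst1 averaged 22.05 FPKM in TABS and 20.6 FPKM in HA, and its paralog Ndst2 6.63 in TABS and 6.67 in HA. The epimerase Glce averaged 7.58 FPKM in TABS and 7.51 FPKM in HA, and the 2-O-sulfotransferase Hs2st1 13.2 in TABS and 12.8 in HA. None of these 4 genes had separate groups. Hs6st1, the 6-O-sulfotransferase, did: it stood at 11.3, 10.4, 10.7 and 10.2 FPKM in TABS, against 7.89, 9.79, 9.07 and 9.20 FPKM in HA. Its fold change was 0.23 ± 0.06 (95% interval 0.08 to 0.37), and its adjusted p of 0.0620 missed the threshold. After TPM rescaling the fold change was 0.28 and the adjusted p 0.0362. With the GC and length correction they were 0.16 and 0.208, and with the replicate block the adjusted p was 0.175. The 6-O-sulfotransferase Hs6st2 stayed at 0.265 FPKM in TABS and 0.294 FPKM in HA. The 3-O-sulfotransferases were near 0: Hs3st3a1 averaged 0.107 FPKM in TABS and 0.109 FPKM in HA, Hs3st1 reached 0.0182 FPKM in 1 TABS library and was at 0 elsewhere, and Hs3st3b1 was listed at 0 in all 8. Hs3st3a1 shares exon bases with F930015N05Rik (32.9%) and sequence with Hs3st3b1, so its value is uncertain.

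Sulf2, an endosulfatase that removes 6-O-sulfate from heparan sulfate outside the cell, had the highest level of all 46 genes. It stood at 87.8, 86.7, 85.2 and 88.4 FPKM in TABS, against 86.1, 85.1, 79.8 and 79.2 FPKM in HA. The lowest TABS library lay between the HA values, and the fold change was 0.08 ± 0.04 (95% interval -0.02 to 0.17; adjusted p = 0.305). Its paralog Sulf1 was listed at 0 in all 8 libraries. Heparanase, Hpse, which cuts heparan sulfate chains, averaged 0.10 FPKM in TABS and 0.116 FPKM in HA. All 10 tested heparan sulfate genes had a fold change above 0, against 52.0% of all tested genes, with a median of 0.08; over the alternatives the number ran from 7 (without HA library 3) to 10, and was 9 after the GC and length correction and after median-of-ratios scaling. The estimate of Ndst2 was 0.0034 on the log2(FPKM + 1) scale, although its mean FPKM was lower in TABS, and its sign turned under 9 of 18 alternatives. At an unadjusted p under 0.05, 3 of the 10 were higher and 0 lower, against 13.2% and 10.8% of all tested genes.

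**Figure D2:**
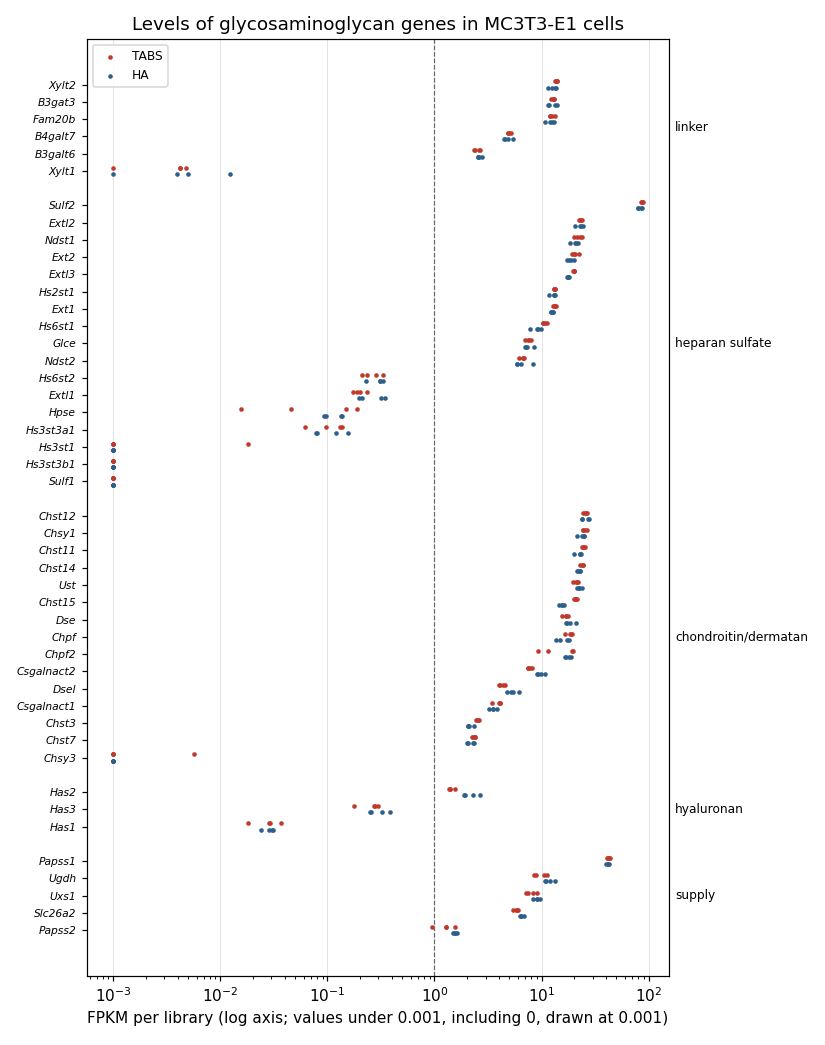
FPKM in each library of the 46 glycosaminoglycan genes on a log axis, by role, with TABS above HA in each line; values under 0.001, zeros included, are drawn at 0.001, and the dashed line marks 1 FPKM. Sulf2 is the highest at 79.2 to 88.4 FPKM, and the 11 untested genes lie under 0.4 FPKM.

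Among chondroitin and dermatan sulfate enzymes, Chst15 rose, and Csgalnact2 and Dsel fell. Chst15 adds a 6-O-sulfate to N-acetylgalactosamine that already carries a 4-O-sulfate, which gives the disulfated chondroitin sulfate E unit. It is protein-coding and lies at chr7:132235780-132317228 on the minus strand (GRCm38, ENSMUSG00000030930). Its FPKM was 21.0, 20.5, 21.6 and 20.0 in TABS, against 14.5, 15.5, 16.1 and 15.4 in HA. The groups were far from overlapping, with means of 20.8 ± 0.694 FPKM in TABS and 15.4 ± 0.677 FPKM in HA (SD, n = 4 each), a ratio of 1.35. The log2 fold change was 0.41 ± 0.04 (SE; 95% interval 0.31 to 0.51; adjusted p = 0.00112, limma), and the call was kept under all 18 alternatives, with fold changes of 0.35 (GC and length correction) to 0.47 (TPM rescaling). Antisense Gm10584 overlaps 17.9% of its exon bases and stood at 0.306 to 0.426 FPKM in TABS and 0.234 to 0.365 in HA; the labels state no strand setting, so reads of the overlap cannot be told apart.

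The other chondroitin and dermatan sulfotransferases did not pass, though the groups of Chst3 and Chst11 did not overlap. Chst3, a chondroitin 6-O-sulfotransferase, stood at 2.51, 2.42, 2.62 and 2.53 FPKM in TABS, against 2.04, 2.06, 2.33 and 2.12 FPKM in HA. All TABS libraries were above all HA libraries (0.17 ± 0.05, adjusted p = 0.0692). Chst3 passed after TPM rescaling (adjusted p = 0.0351) and after quantile normalization (0.0498). It did not pass with the GC and length correction (fold change 0.0923, adjusted p = 0.2497). Nor did it pass with the replicate block (adjusted p = 0.1739) or with no filter on low values (0.1437). Chst11, a chondroitin 4-O-sulfotransferase, ran from 24.0 to 25.5 FPKM in TABS and from 20.3 to 23.3 in HA, also without overlap (0.14, adjusted p = 0.121). Chst14, which 4-O-sulfates dermatan sulfate, ran from 22.7 to 24.4 FPKM in TABS and from 21.6 to 22.9 in HA (0.09, adjusted p = 0.202), with a narrow overlap. Chst7, the second 6-O-sulfotransferase of unsulfated chondroitin, averaged 2.34 FPKM in TABS and 2.17 FPKM in HA. Chst12, the second 4-O-sulfotransferase, stood at 26.0, 24.6, 25.6 and 26.6 FPKM in TABS, against 27.1, 27.6, 23.8 and 23.8 FPKM in HA, on both sides of TABS (0.01 ± 0.06, adjusted p = 0.936). Ust, the uronyl 2-O-sulfotransferase, averaged 21.0 ± 0.801 FPKM in TABS and 22.5 ± 0.950 FPKM in HA (-0.10, adjusted p = 0.236), and with the GC and length correction it fell (-0.15, adjusted p = 0.0394).

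In all, 1 of the 7 sulfotransferases rose, against 4.49% of all tested genes, and 6 had a fold change above 0, against 52.0%. That number was 5 after quantile normalization, after the GC and length correction, and without TABS library 4, HA library 3 or HA library 4. Chst15 made up 80.5% to 81.5% of the summed FPKM of Chst3, Chst7 and Chst15 in TABS and 76.8% to 79.1% in HA, so its share was higher in every TABS library than in any HA library. Chst11, Chst12 and Chst14 held similar shares of their own sum, at 33.3%, 34.6% and 32.1% in TABS and 31.9%, 36.3% and 31.8% in HA.

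Csgalnact2 and its paralog Csgalnact1 add the first N-acetylgalactosamine and so commit the linker to chondroitin sulfate. Csgalnact2 lies at chr6:118107452-118139140 on the minus strand (GRCm38, ENSMUSG00000042042). Its FPKM was 7.80, 8.202, 7.55 and 7.43 in TABS, against 9.82, 9.23, 9.13 and 10.7 in HA. Every TABS library lay below every HA library, with means of 7.75 ± 0.341 FPKM in TABS and 9.73 ± 0.739 FPKM in HA (SD, n = 4 each). The log2 fold change was -0.29 ± 0.06 (SE; 95% interval -0.42 to -0.17; adjusted p = 0.0168, limma), and -0.18 with the GC and length correction (adjusted p = 0.0451). The call was lost without TABS library 3 (adjusted p = 0.0552) or 4 (0.0532). Csgalnact1 averaged 3.91 ± 0.300 FPKM in TABS and 3.54 ± 0.231 FPKM in HA (0.11, adjusted p = 0.291). Csgalnact2 was thus 65.2% to 68.2% of the summed level of the pair in TABS and 72.1% to 75.1% in HA.

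The enzymes that extend the chondroitin chain did not pass. Chsy1, the main chondroitin synthase here, stood at 25.6, 26.3, 24.6 and 24.2 FPKM in TABS, against 21.7, 25.1, 24.1 and 24.9 FPKM in HA, with overlapping groups (0.07 ± 0.05, adjusted p = 0.450). Its partner Chpf averaged 18.2 ± 1.29 FPKM in TABS and 15.97 ± 2.12 FPKM in HA (SD, n = 4 each; 0.19, adjusted p = 0.240). Chpf2 split the TABS libraries, at 19.3, 11.5, 9.35 and 19.6 FPKM, against 18.9, 18.2, 17.0 and 16.5 FPKM in HA. TABS libraries 2 and 3 were below every HA library and the other two above, which left an SE of 0.21 on a fold change of -0.29 (adjusted p = 0.434). Smarcd3, on the opposite strand, covers 44.1% of the exon bases of Chpf2; it ran at 5.51, 4.61, 5.86 and 4.90 FPKM in TABS, against 5.24, 4.57, 4.92 and 4.51 FPKM in HA, and its part in the Chpf2 values was not tested. Chsy3 stayed under 0.006 FPKM in every library.

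Dse and Dsel turn glucuronate into iduronate, which makes chondroitin into dermatan sulfate. Dsel lies at chr1:111858702-111864918 on the minus strand (GRCm38, ENSMUSG00000038702). Its FPKM was 4.09, 4.54, 4.41 and 4.03 in TABS, against 5.41, 4.76, 5.19 and 6.17 in HA. The groups did not overlap, though TABS library 2 came close to HA library 2, and means were 4.27 ± 0.246 FPKM in TABS and 5.38 ± 0.591 FPKM in HA (SD, n = 4 each). The log2 fold change was -0.27 ± 0.07 (SE; 95% interval -0.43 to -0.12; adjusted p = 0.0479, limma), just inside the threshold. The call was lost without TABS library 1 (adjusted p = 0.115), 2 (0.0712), 3 (0.0924) or 4 (0.122), without HA library 1 (0.0847), 3 (0.0862) or 4 (0.0768), with no filter on low values (0.115), after TPM rescaling (0.0635) and with the GC and length correction (fold change -0.20, adjusted p = 0.0656). Dse, at the higher level, averaged 16.8 ± 1.0 FPKM in TABS and 18.4 ± 1.73 FPKM in HA (-0.13, adjusted p = 0.301). Dse held 79.2% to 80.7% of the sum of both in TABS and 75.9% to 78.4% in HA.

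**Figure D3:**
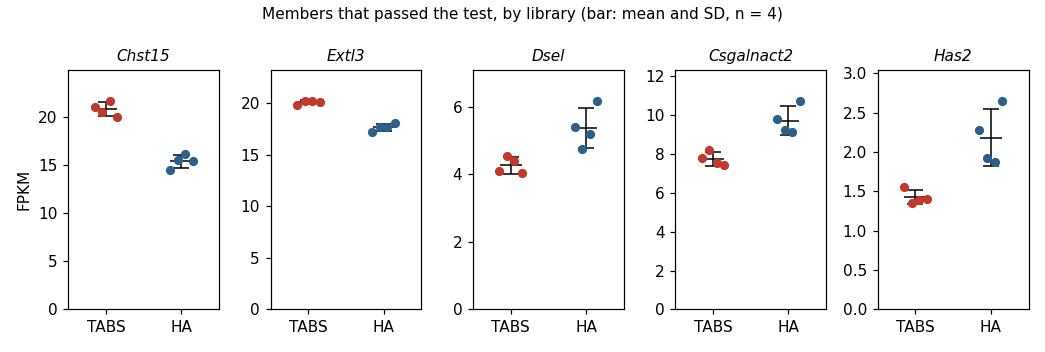
FPKM in each library of the 5 glycosaminoglycan genes that passed the test, with means and SD (n = 4 each) as bars, on axes that start at 0. In Chst15 and Extl3 all TABS points lie above all HA points, and in Dsel, Csgalnact2 and Has2 all lie below.

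Hyaluronan synthase expression was low, and Has2, the main one here, fell. Has2 lies at chr15:56665627-56694539 on the minus strand (GRCm38, ENSMUSG00000022367). Its FPKM was 1.56, 1.35, 1.39 and 1.40 in TABS, against 2.28, 1.93, 1.87 and 2.65 in HA. Every TABS library lay below every HA library, and the HA libraries were spread more widely: 1.43 ± 0.0914 FPKM in TABS and 2.18 ± 0.359 FPKM in HA (SD, n = 4 each), a ratio of 0.653. The log2 fold change was -0.39 ± 0.08 (SE; 95% interval -0.56 to -0.21; adjusted p = 0.0214, limma). With a pseudocount of 0.1 in place of 1 it was -0.57, and with the GC and length correction -0.30 (adjusted p = 0.0352). The call was lost without TABS library 2 (adjusted p = 0.0584), 3 (0.0617) or 4 (0.0573), without HA library 1 (0.0501) and with no filter on low values (0.0732). By the steps that low values form in the table, these levels would stand for 120, 141, 128 and 146 fragments in TABS and 243, 174, 166 and 292 in HA, if 1 step is 1 fragment.

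Has3 and Has1 were not tested: Has3 averaged 0.255 FPKM in TABS and 0.304 FPKM in HA, and Has1 0.028 on both. Has2 was 81.6% to 87.1% of the summed synthase level in TABS and 82.2% to 90.4% in HA, so the shares overlapped. Has2os, an RNA from the opposite strand that covers 4.30% of the exon bases of Has2, averaged 0.580 FPKM in TABS and 0.939 FPKM in HA and was not tested.

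Of the genes that supply sulfate and sugar donors, 0 of 5 passed limma's test, and 3 were lower at an unadjusted p under 0.05, against 10.8% of all tested genes, namely Slc26a2, Ugdh and Uxs1. The median fold change was -0.17, with 4 of 5 below 0 (5 of 5 after quantile normalization and after the GC and length correction). Papss1, the PAPS synthase at the higher level, stood at 41.0, 41.8, 43.3 and 42.4 FPKM in TABS, against 40.5, 41.7, 41.4 and 42.8 FPKM in HA. Those groups overlapped almost fully (0.02 ± 0.04; 95% interval -0.06 to 0.10; adjusted p = 0.817). Papss2 averaged 1.27 FPKM in TABS and 1.55 FPKM in HA, so Papss1 held 96.4% to 97.7% of the pair in TABS and 96.4% to 96.5% in HA. Slc26a2, the sulfate transporter of the plasma membrane, stood at 5.88, 6.0, 5.36 and 5.75 FPKM in TABS, against 6.48, 6.38, 6.28 and 6.91 FPKM in HA. The groups did not overlap, and the fold change of -0.15 ± 0.05 missed the threshold (adjusted p = 0.0850). Ugdh, which makes UDP-glucuronate, stood at 8.52, 8.96, 11.2 and 10.5 FPKM in TABS, against 10.7, 11.0, 12.0 and 13.4 FPKM in HA. TABS library 3 lay within the HA range (-0.25 ± 0.09, adjusted p = 0.150). Uxs1, which turns UDP-glucuronate into UDP-xylose, averaged 7.96 FPKM in TABS and 9.03 FPKM in HA (adjusted p = 0.191).

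The fold changes were related to base composition. Across the 11277 tested genes with a GC content, Spearman's correlation of fold change with transcript GC was 0.35, and across the 35 members 0.51; the points share the same 8 libraries and are not independent. The part of GC content in the results was not tested beyond the corrected values given here for genes, counts and medians. Of the 18 genes of related lists that are given below as changed, 13 kept their call with the same correction, and 5 lost it. Those 5 were Dcn (-0.17, adjusted p = 0.0875), Sgsh (0.14, 0.0686), Gusb (0.10, 0.0505), Hmmr (-0.13, 0.0536) and Galnt2 (0.12, 0.0963). With a replicate block in the fit, 16 of the 36 genes chosen by the naming rule lost a call. Extl3, Csgalnact2, Dsel and Has2 were among them, and the rest were genes of the related lists.

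The proteins that carry the chains were measured too. Of 28 core protein genes, 18 were tested, 3 rose and 1 fell, with a median fold change of 0.09. Of all tested genes, 4.49% rose and 2.90% fell, and their median was 0.0057. Gpc1, a glypican that holds heparan sulfate at the membrane, averaged 85.6 ± 2.48 FPKM in TABS and 72.3 ± 4.09 FPKM in HA (0.24, adjusted p = 0.01999). Sdc3, a transmembrane heparan sulfate proteoglycan, averaged 3.86 ± 0.0194 FPKM in TABS and 3.09 ± 0.247 FPKM in HA (0.25, adjusted p = 0.0202). App, of which some splice forms carry chondroitin sulfate, averaged 34.1 ± 0.733 FPKM in TABS and 29.9 ± 0.338 FPKM in HA (0.19, adjusted p = 0.0140). Dcn, decorin, which carries a single chondroitin or dermatan sulfate chain and binds collagen, averaged 36.9 ± 2.11 FPKM in TABS and 45.3 ± 3.66 FPKM in HA (-0.28, adjusted p = 0.0303; SD, n = 4 each). Each of the 4 had groups that did not overlap, but they were named because they passed, which favours separate groups. Of the 18 tested core protein genes, 7 had all TABS libraries above all HA libraries, against 10.8% of all tested genes. In 1 all TABS libraries lay below, against 7.15%. The calls were lost without TABS library 2 for App, without TABS 1, TABS 3 or HA 3 for Gpc1, without any TABS library, HA 2 or HA 3 for Sdc3, and without TABS 1, TABS 3, TABS 4, HA 1 or HA 2 for Dcn (adjusted p 0.0504 to 0.0843). Ankmy1 overlaps 18.9% of the exon bases of Gpc1.

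Degradation and donor synthesis gave different counts, beside 4.49% of all tested genes that rose and 2.90% that fell. Of 18 genes for the lysosomal breakdown of glycosaminoglycans, 17 were tested, 6 rose and 0 fell by limma (1 was lower at an unadjusted p under 0.05), with a median fold change of 0.14. Among them Idua, the iduronidase of heparan and dermatan sulfate, averaged 2.06 ± 0.386 FPKM in TABS and 1.23 ± 0.0746 FPKM in HA (0.45, adjusted p = 0.0202). Sgsh, the heparan N-sulfatase, averaged 16.2 FPKM in TABS and 13.8 FPKM in HA (0.21, adjusted p = 0.0217). Gusb, the beta-glucuronidase, averaged 32.7 FPKM in TABS and 29.4 FPKM in HA (0.15, adjusted p = 0.0406). The calls were lost without TABS 1, TABS 2, TABS 4 or HA 2 for Idua, without TABS 2, TABS 3 or TABS 4 for Sgsh, and without any 1 of the 8 libraries for Gusb (adjusted p 0.0535 to 0.112). The count of 6 was 1 without TABS library 1 or 3, 0 without TABS 2 or 4, 2 without HA 2, 3 without HA 3 and 3 after the GC and length correction. Exons of Sgsh overlap those of Card14 (21.6%). Of 17 genes that handle nucleotide sugars and PAPS, 16 were tested, 0 rose by limma (1 was higher at an unadjusted p under 0.05) and 1 fell, with a median of -0.06. That gene was Gfpt2, an entry enzyme of the hexosamine pathway, at 1.61 ± 0.0892 FPKM in TABS and 2.31 ± 0.0800 FPKM in HA (-0.35, adjusted p = 0.00343), a call kept with any single library left out. Its paralog Gfpt1, named after its values were seen, stood at a higher level and did not pass. It averaged 14.5 FPKM in TABS and 16.3 FPKM in HA (-0.15, adjusted p = 0.0874), with groups that did not overlap.

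Hyaluronan binding and turnover split. Of 16 genes, 8 were tested, 1 rose and 1 fell, against 4.49% and 2.90% of all tested genes. Layn, layilin, a membrane receptor for hyaluronan, averaged 35.5 ± 0.432 FPKM in TABS and 26.5 ± 0.171 FPKM in HA (SD, n = 4 each; 0.41 ± 0.03, adjusted p = 0.000513), and was called with any single library left out. Hmmr, a hyaluronan-binding protein of the mitotic spindle, averaged 2.82 FPKM in TABS and 3.38 FPKM in HA (-0.20, adjusted p = 0.0480), and that call was lost with any 1 of the 8 libraries left out (adjusted p 0.0512 to 0.122).

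In the list for keratan sulfate, a glycosaminoglycan carried by some of the small leucine-rich proteoglycans, 9 of 14 genes were tested, 0 rose by limma (1 was higher at an unadjusted p under 0.05) and 4 fell, with a median of -0.13. Those 4 were the core proteins Ogn, Omd, Fmod and Prelp. The fold change was above 0 in 3 of the 9 tested genes, against 52.0% of all tested genes. A further core protein, Lum, named after its values were seen, did not pass. It averaged 48.0 FPKM in TABS and 43.7 FPKM in HA (0.13, adjusted p = 0.331). Of all tested genes, 4.49% rose and 2.90% fell. Fmod, fibromodulin, averaged 210 ± 3.97 FPKM in TABS and 273 ± 27.1 FPKM in HA (-0.37, adjusted p = 0.0127). Prelp averaged 10.6 FPKM in TABS and 14.1 FPKM in HA (-0.37, adjusted p = 0.0322), a call lost without TABS 1, TABS 2, TABS 3, HA 1, HA 2 or HA 3 (adjusted p 0.0501 to 0.0819). Omd averaged 9.15 FPKM in TABS and 17.7 FPKM in HA (-0.88, adjusted p = 0.000742), and Ogn 136 in TABS and 292 in HA (-1.09, adjusted p = 0.00257).

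**Figure D4:**
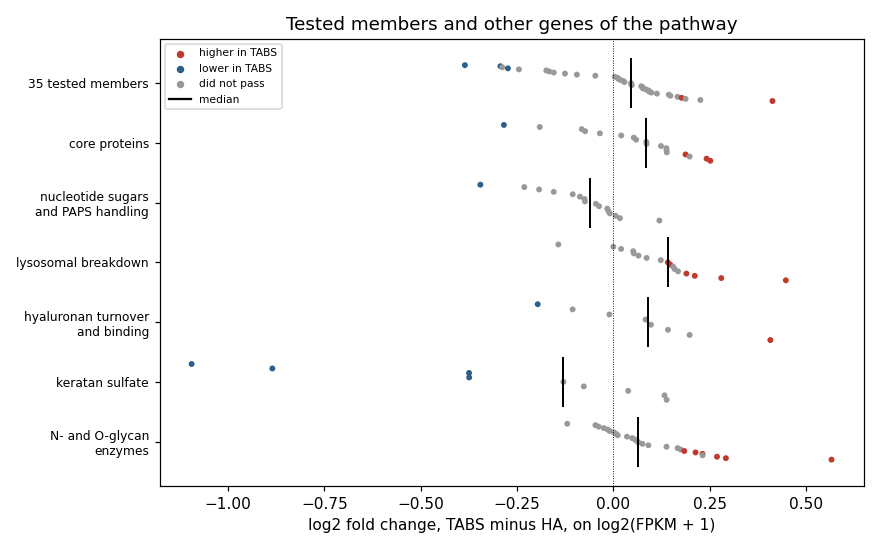
Log2 fold changes, TABS minus HA, of the 35 tested glycosaminoglycan genes and of the tested genes of 6 related lists; each point is a gene and the black bar the median of its list. The medians run from -0.13 in the keratan sulfate list to 0.14 in lysosomal breakdown, against 0.05 in the glycosaminoglycan genes. All are without the GC and length correction, with which the median of the glycosaminoglycan genes was 0.0092.

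Glycosylation genes outside this pathway were listed for comparison. Of 28, 26 were tested, 6 rose and 0 fell by limma (0 also at an unadjusted p under 0.05), with a median of 0.06. The count of 6 was 3 without TABS library 2 or 3 and 2 without TABS 4. Of all tested genes, 4.49% rose and 2.90% fell. St6gal1, which adds sialic acid to N-glycans, averaged 2.20 FPKM in TABS and 1.17 FPKM in HA (0.57, adjusted p = 0.000710). St3gal1, which sialylates O-glycans, averaged 13.5 FPKM in TABS and 10.9 FPKM in HA (0.29, adjusted p = 0.00377). St3gal4 averaged 23.9 FPKM in TABS and 20.2 FPKM in HA (0.23, adjusted p = 0.0164), and Galnt2, which starts O-glycans, 59.4 in TABS and 52.2 in HA (0.18, adjusted p = 0.0192). Without TABS 3 or TABS 4 the call of St3gal4 was lost, and without TABS 1, TABS 2 or TABS 4 that of Galnt2 (adjusted p 0.0533 to 0.0631). Galnt2 shares 90% of its exon bases with the gene model Gm20388, so its value is uncertain. The difference between this list and the glycosaminoglycan genes was not tested.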

How the data were processed

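RNA from 8 libraries was sequenced as paired reads from NEBNext Ultra libraries, per the labels' protocols. The deposited table held 1 FPKM value per gene and library, made by the authors; fastp, STAR, DESeq2 and GRCm38 are named in the submitters' processing notes, without versions or roles. Neither the program behind the FPKM values nor a strand setting is stated there. Of 55335 identifiers, 55154 were found in GENCODE M21 (GRCm38), which gave symbols, coordinates, lengths and exon overlaps, and 27134 were at 0 in every library.

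Genes with at least 1 FPKM in at least 4 libraries were fitted by limma (3.58.1, under R 4.3.3) after taking log2 of FPKM plus a pseudocount of 1, with variances following the level, two-sided, no block, and Benjamini-Hochberg adjustment over all 11280 genes. The script was tested on simulated data. Library measures had exact permutation tests. Low FPKM values form steps that would make 1 FPKM over 1 kilobase worth 18.2 to 24.6 fragments (TABS) or 21.0 to 26.1 (HA). Only 26.7% to 29.7% of low values were whole, to a tolerance of 0.02 step. Reads could therefore not be recovered, and there is no count test and no interval from counts. All 8 libraries had their closest match within their group (correlations over genes 0.987 to 0.992, against 0.985 to 0.990 across groups).

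Alternatives were a pseudocount of 0.1, no filter, a filter of 5 FPKM, TPM, median-of-ratios and quantile scaling, robust variances, a spline correction for GC content and length with 4 degrees of freedom, a replicate block with and without it, and each library left out. The members, lists and tests were chosen with earlier results of these data known. Named in full are all members that passed, and of the others the 2 per role with the highest mean and any with an adjusted p under 0.1. From each related list, the called genes with the 4 smallest adjusted p are named, except that 1 of them is not reported here. Promoters were read from a RefSeq table on GRCm38.p6, which held 3 of the 5 changed genes.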

Additional observations from a re-analysis of the deposited data

Results flagged for a closer look

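Of 110 groups of 4 libraries tested for a value far from the others, 3 (2.73%) held one, where chance gives about 1 in 20. Csgalnact1 stood at 3.46 FPKM in TABS library 4, against 4.02 to 4.10 in the other TABS libraries. Sgsh stood at 13.0 FPKM in HA library 4, against 14.05 to 14.2 in the other HA libraries. St3gal1 stood at 10.2 FPKM in HA library 4, against 11.0 to 11.2 in the other HA libraries.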

How the results depend on the processing

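Over 18 alternatives, 36 genes chosen by the naming rule gave 639 fold changes: 506 kept direction and side of the threshold, 118 lost a call, 3 gained one and 12 turned sign. Chst15 kept its call throughout, Csgalnact2 under 14 of 18, Extl3 under 10 of 18, Has2 under 10 of 17 and Dsel under 5 of 17.

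Of all tested genes, 506 rose in the fit as reported, 915 after TPM rescaling, 136 with the replicate block, 170 with the block and the GC and length correction, and 239 to 425 with 1 library left out. The number that fell was 327 as reported, 195 with no filter, 94 with the block, 161 with the block and the correction, and 167 to 279 with 1 library left out. TPM rescaling moved the share of calls that were higher to 79.3%, from 60.7%. Among members, 2 rose as reported, 4 after TPM rescaling, 1 after the correction, 1 with the block, 1 with the block and the correction, and 1 to 2 with 1 library left out. The number that fell was 3 as reported, 1 with no filter, 1 with the filter of 5 FPKM, 0 with the block or with the block and the correction, and 0 to 3 with 1 library left out. The filter of 5 FPKM gives no value for Dsel and Has2, and otherwise the cause was not tested.

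The sign turned under at least 1 alternative in 7 of the 35 tested members, none of them called: Ndst2 (-0.0631 to 0.105, under 9 of 18), Glce (lowest -0.0134), Fam20b (lowest -0.00173), and, with each such value, B3gat3 (-0.00975 without HA 3, -0.00196 without HA 4, up to 0.0727 over the libraries left out), Extl2 (-0.0229 without HA 3, up to 0.0569), Chst12 (-0.00904 under quantile normalization, -0.0311 with the correction alone or with the block, -0.0050 without TABS 4, -0.0217 without HA 3, -0.0209 without HA 4, up to 0.0473) and Papss1 (-0.00516 under quantile normalization, -0.0152 with the correction alone or with the block).

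Same-numbered libraries of the 2 groups correlated at 0.10, 0.05, -0.10 and -0.06 after removing group means. Whether same-numbered libraries were handled together cannot be told from these values. Of the 4 TABS libraries, only the first correlated best with the HA library of its own number. With the replicate block in the fit, Chst15 kept its call (adjusted p = 0.0167), and Extl3 (0.107), Csgalnact2 (0.0842), Dsel (0.152) and Has2 (0.0613) lost theirs. The number of reads behind low values is unknown.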

Other observations

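Among untested genes of the related lists, 3 are given as values, chosen after their values were seen. Hapln1, a link protein that ties hyaluronan to proteoglycans, stood at 0.641, 0.600, 0.396 and 0.558 FPKM in TABS, against 1.18, 0.967, 1.04 and 1.298 FPKM in HA, and all TABS libraries were below all HA libraries. Ndst3, a further heparan sulfate N-deacetylase and N-sulfotransferase, stood at 0.232, 0.211, 0.188 and 0.255 FPKM in TABS, against 0.150, 0.121, 0.138 and 0.131 FPKM in HA, with all TABS libraries above. Chst1, a keratan sulfate sulfotransferase, stood at 0.574, 0.539, 0.458 and 0.623 FPKM in TABS, against 0.327, 0.316, 0.231 and 0.455 FPKM in HA, above HA except that TABS library 3 only just exceeded HA library 4.

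Of 10 further family members outside the 46, only Pxylp1, a phosphatase that removes phosphate from the linker xylose, was tested. It averaged 3.88 ± 0.464 FPKM in TABS and 3.50 ± 0.401 FPKM in HA (SD, n = 4 each; 0.12, adjusted p = 0.446, limma). Hs3st2, Hs3st4, Hs6st3 and Hpse2 were listed at 0 in all 8 libraries. Ndst4, Hs3st5 and Hs3st6 had means under 0.06 FPKM on both scaffolds, and Chst13 averaged 0.0887 FPKM in TABS and 0.179 in HA.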
